A study of Mus musculus with 4 samples.

Results

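The 10 genes described here encode the receptors and close partners of the stress hormones and of oxytocin and vasopressin: *Crhr1*, *Crhr2* and *Crhbp* for corticotropin-releasing hormone (CRH), *Oxtr*, *Avpr1a* and *Avpr1b* for the neurohypophysial peptides, and *Nr3c1*, *Nr3c2*, *Fkbp5* and *Sgk1* for corticosteroids. They were chosen by name for these roles, with earlier results of these data known. All 10 were among the 26328 genes listed with a value in at least 1 hippocampal sample. Poly(A) RNA was sequenced from the hippocampus of male C57BL/6 mice, 2 wild-type (WT) and 2 *Lsd1* knock-in (KI). In the KI mice, a serine of the histone demethylase LSD1 (gene *Kdm1a*) that PKCα phosphorylates was changed to alanine. The labels name no Cre driver or transgene. The labels give an age of 8 to 15 weeks for the KI mice and WT littermates of the behavioural work, and no separate age for the sequenced samples. Nothing in the labels says whether a sample is 1 mouse or a pool, so the p-values below measure only the spread between these samples.

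CRH acts in the brain through 2 G protein-coupled receptors, CRHR1 and CRHR2, and is held away from them by a secreted binding protein, CRHBP. Oxytocin and vasopressin act through related receptors, and in the hippocampus the oxytocin receptor and the vasopressin 1b receptor are known for their place in area CA2 and social memory. Corticosteroids reach their target genes through the high-affinity mineralocorticoid receptor (*Nr3c2*), which is abundant in hippocampal neurons, and the lower-affinity glucocorticoid receptor (*Nr3c1*). FKBP5 is a cochaperone that lowers the hormone affinity of the glucocorticoid receptor, SGK1 is a kinase, and both genes are well-known corticosteroid targets.

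*Crhr1* and *Oxtr* are among the genes the study also followed by quantitative PCR, so the stretches of coding sequence that its primers span are shown, with the primers in capitals. They were placed on GENCODE M21 transcripts of GRCm38 (the same build as mm10). The *Crhr1* stretch lies in exon 7 of 13 at chr11:104170141-104170235 on the plus strand and is 95 bases long. The *Oxtr* stretch lies in exon 1 of 2 at chr6:112489092-112489189 on the minus strand and is 98 bases long.
Crhr1: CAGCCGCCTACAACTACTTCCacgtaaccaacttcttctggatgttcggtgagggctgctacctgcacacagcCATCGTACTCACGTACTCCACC
Oxtr: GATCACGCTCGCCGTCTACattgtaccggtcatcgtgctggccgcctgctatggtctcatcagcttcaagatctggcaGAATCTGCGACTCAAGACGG
Both stretches lie inside an exon and wholly within coding sequence, and exon reads of the same genes make up the RNA-seq values below.

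The upstream sequences of the 2 corticosteroid targets are shown because each holds a short motif of the kind through which nuclear receptors or clock factors bind DNA. RefSeq promoter windows (GRCm38.p6, 250 bases before to 50 after a start) were matched for 8 of the 10 genes, in 13 windows. They were searched on both strands for the palindromic glucocorticoid response element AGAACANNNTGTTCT, its single arm AGAACA, the E-box CACGTG that the CLOCK and BMAL1 pair binds, and the cyclic AMP response element TGACGTCA. Among 32851 RefSeq windows of the same length, 3 (0.00913%) held the full palindrome, 19.0% its single arm, 7.15% the E-box and 1.79% the cyclic AMP element. The part before the start is printed for 1 *Sgk1* window at chr10:21993640-21993889 (plus strand) and for *Fkbp5* at chr17:28486150-28486399 (minus strand), with the motifs in capitals.
Sgk1: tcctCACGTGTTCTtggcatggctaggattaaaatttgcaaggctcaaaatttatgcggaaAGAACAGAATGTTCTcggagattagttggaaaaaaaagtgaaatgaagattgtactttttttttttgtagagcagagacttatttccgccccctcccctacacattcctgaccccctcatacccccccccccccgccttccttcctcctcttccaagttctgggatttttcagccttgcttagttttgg
Fkbp5: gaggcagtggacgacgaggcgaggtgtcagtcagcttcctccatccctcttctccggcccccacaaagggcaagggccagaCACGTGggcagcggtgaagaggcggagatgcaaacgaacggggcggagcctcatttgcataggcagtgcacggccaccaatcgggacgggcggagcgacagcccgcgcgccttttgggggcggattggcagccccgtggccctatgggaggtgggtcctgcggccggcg
The printed *Sgk1* window is 1 of the 3 with the full palindrome, which begins 189 bases before that start. An E-box 246 bases before the same start runs into a further arm of the element. The other *Sgk1* windows searched held no palindrome, E-box or cyclic AMP element. Among them, those at chr10:21881934-21882233 and chr10:21991973-21992272 held a single arm. The *Fkbp5* window holds an E-box 169 bases before the start and none of the other motifs. Of the other genes, *Oxtr* had an E-box 43 bases before its start, and the windows of *Crhr1*, *Crhr2*, *Crhbp*, *Nr3c2* and *Avpr1a* held none of these letters. A match says only that the letters are there.

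Expression was measured in RPKM, in which reads are divided by exon length and by the depth of the sample, so that genes of a sample can be compared. The samples held about 8830000 to 14950000 mapped reads, with WT replicate 2 the shallowest, and listed 22655 to 23909 genes. KI and WT were compared with limma on log2(RPKM + 1). A gene entered the test when 2 or more samples reached 0.5 RPKM, which 18436 genes did, and a gene was called when its Benjamini-Hochberg adjusted p was under 0.1 and the difference at least 1.2-fold. No gene was called in limma (0% of those tested, smallest adjusted p 0.197), while 1774 genes had an unadjusted p under 0.05. *Kdm1a* stood at 11.6 and 11.2 RPKM in WT and 11 and 11.2 RPKM in KI, which does not check the genotype, since the knock-in is a point mutation. All 8 principal cell markers of the hippocampus (such as *Prox1* and *Wfs1*) passed the filter, with summed levels of 320 and 324 RPKM in WT and 297 and 310 RPKM in KI. Of other brain regions, thalamus markers summed to 15 and 13.8 RPKM in WT and 19.3 and 15.6 RPKM in KI. Of these 5, 1 (*Prkcd*) was higher in both KI samples, against 24.0% of all genes tested. Another 2 were lower in both, against 18.1% of all genes tested. The median log2 difference was -0.05 over the 4 tested. Striatum markers summed to 20.8 and 19.3 RPKM in WT and 23.8 and 23.7 RPKM in KI. Of these 6, 3 were higher in both KI samples (background 24.0%) and 1 was lower in both (background 18.1%). *Adora2a*, 1 of the 3, entered the test only through the KI samples. The summed markers of astrocytes, oligodendrocytes, microglia and endothelium overlapped between the groups.

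The 10 genes covered a wide range of levels, and their order is described here without a test. *Nr3c2* was the most abundant at 31.7 ± 3.20 RPKM (mean ± SD over all 4 samples), above 89.3% of the genes tested. *Crhbp* (13.8 ± 2.94), *Sgk1* (13.0 ± 1.64), *Nr3c1* (11.4 ± 0.381) and *Fkbp5* (9.15 ± 0.725 RPKM) came next, and among these neighbours the ranges of *Crhbp* and *Sgk1*, and of *Sgk1* and *Nr3c1*, overlapped. *Crhr1* was at 4.04 ± 0.696 RPKM and *Oxtr* at 1.95 ± 0.480 RPKM. The lowest were *Crhr2* (0.506 ± 0.0983), *Avpr1b* (0.269 ± 0.0657) and *Avpr1a* (0.136 ± 0.0656 RPKM), and the last pair kept this order in all 4 samples although *Avpr1a* rests on 1 to 7 reads. The RNAs of the receptors that bind the peptides thus lay below those of the corticosteroid receptors in every sample. The RNA of the CRH binding protein lay above those of both CRH receptors.

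**Figure D1:**
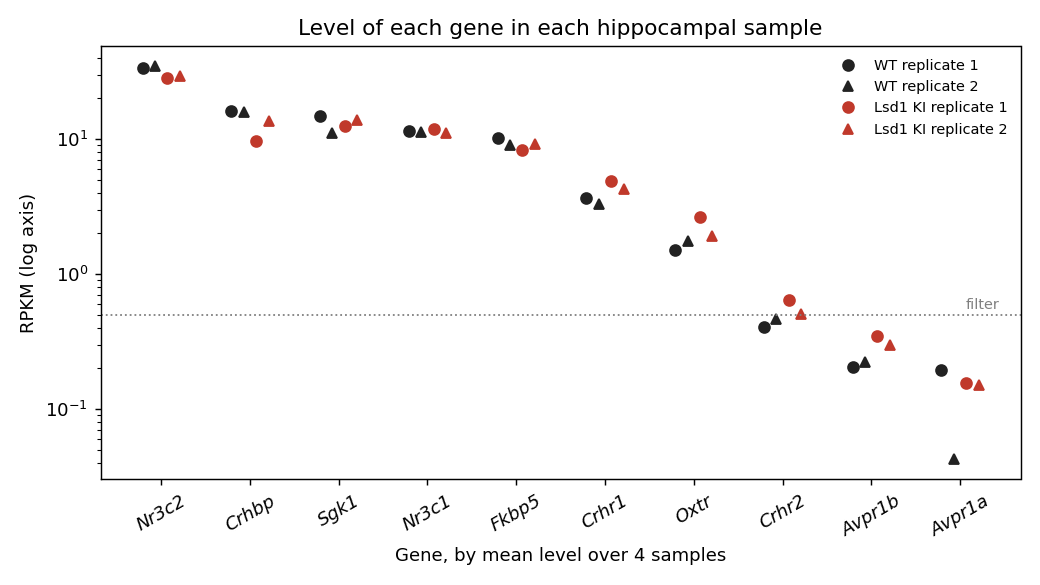
RPKM (log axis) of the 10 genes in each sample, with WT in black, *Lsd1* KI in red, circles for replicate 1 and triangles for replicate 2. The dotted line marks the filter of 0.5 RPKM. *Crhr1*, *Oxtr*, *Crhr2* and *Avpr1b* have both KI samples above both WT samples, and *Crhbp* and *Nr3c2* have both below.

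Of the 10 genes, 8 passed the filter on low values and 0 were called by limma at an adjusted p under 0.1, against 0% of all genes tested. By unadjusted limma p under 0.05, *Crhr1* was higher in KI (background 6.3% of genes tested), and *Crhbp* and *Nr3c2* were lower (background 3.33%). For *Crhr1*, *Oxtr*, *Crhr2* and *Avpr1b*, 4 of the 10 genes (3 of the 8 tested), each KI value exceeded each WT value, where 24.0% of all genes tested did so. Of those 3, *Crhr2* entered the test only through the KI samples, so its place in the count is not independent of the filter. For *Crhbp* and *Nr3c2*, 2 of the 10, each KI value was under each WT value, against a background of 18.1%. In the remaining 4 genes the groups overlapped. The median log2 difference over the 8 genes tested was 0.02, beside 0.013 over all genes tested. KI replicate 1 was the highest or lowest sample for 8 of the 10 genes, while the share was 52.1% over all genes tested, and KI replicate 2 was so for 1 gene. In bulk tissue, fewer cells of a type and less RNA per cell cannot be told apart, which applies to each value that follows.

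*Crhr1* encodes the main brain receptor of CRH. It was at 3.67 and 3.32 RPKM in the WT samples and at 4.89 and 4.30 RPKM in the KI samples, resting on 72 to 173 reads. Both KI samples were above both WT samples, and the nearest values of the groups stood 1.17-fold apart, a little more than the 1.14-fold between the KI samples. The mean was 1.32-fold higher in KI. On the log2(RPKM + 1) scale the difference was 0.32 ± 0.10 (SE, limma, Benjamini-Hochberg adjusted p = 0.487), and it was 0.39 with a pseudocount of 0.1. The study picked *Crhr1* for quantitative PCR after its RNA-seq of these samples, so its direction here is not independent evidence. By that PCR the authors reported an increase in KI hippocampus, which was not examined here. The gene (ENSMUSG00000018634) lies on chromosome 11 at 104132855-104175523 on the plus strand. Marker genes of neocortex, where CRHR1 is also known to be abundant, had summed levels of 37.6 and 39.9 RPKM in WT and 42.1 and 41.3 RPKM in KI, with 3 of 5 higher in both KI samples (background 24.0%) and none at 0. Their part in the *Crhr1* difference was not tested.

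*Crhr2*, the receptor with high affinity for the urocortins, was at 0.408 and 0.465 RPKM in WT and at 0.639 and 0.510 RPKM in KI. It passed the filter of 0.5 RPKM only through the KI samples. The KI values were again the higher ones, but they rest on 47 and 39 reads against 28 and 21, and the ratio of the pooled reads, 1.33, has a 95% counting interval of 0.927 to 1.93. On the log2(RPKM + 1) scale the difference was 0.13 ± 0.13 (SE, limma adjusted p = 0.785), 0.07 without KI replicate 1, 0.06 after quantile normalization and 0.33 with a pseudocount of 0.1. At this depth the difference was within counting error. The gene (ENSMUSG00000003476) lies on chromosome 6 at 55090049-55133016 on the minus strand. The choroid plexus is also known to contain *Crhr2*. Its 5 markers summed to 14.1 and 19.7 RPKM in WT and to 60.6 and 16.5 RPKM in KI. Of the 5, 1 was higher in both KI samples (background 24.0%), and *Kcnj13* was at 0 in 1 WT sample. The sample with the highest choroid plexus sum, KI replicate 1, was also the highest in *Crhr2*, and the part of these cells was not tested.

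How the RNAs of the 2 CRH receptors stood to each other depended on the scale. *Crhr1* over *Crhr2* was 8.98 and 7.12 in WT and 7.65 and 8.42 in KI, so the groups overlapped. The group means were 8.05 ± 1.31 and 8.03 ± 0.544 (SD, n = 2 each), with an exact permutation p of 1 (two-sided, and 0.333 is the smallest that 2 against 2 allows). With 1 RPKM added to both genes the ratio was 3.31 and 2.94 in WT and 3.59 and 3.51 in KI, so that both KI ratios were then the higher ones.

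*Crhbp* encodes the secreted protein that binds CRH and limits its action on the receptors. It was at 16.1 and 15.8 RPKM in WT and at 9.73 and 13.7 RPKM in KI. Both KI samples were lower, but they differed from each other 1.41-fold while the nearest WT and KI values differed 1.15-fold. KI replicate 1 over KI replicate 2 was 0.711, with a 95% counting interval of 0.600 to 0.842, so the gap between the KI samples was beyond counting error. The KI mean was 26.6% below WT. The log2 difference was -0.43 ± 0.16 (SE, limma adjusted p = 0.508), and was -0.21 without KI replicate 1 and -0.66 without KI replicate 2. *Crhbp* is in a gene list the study drew up from these samples, so its direction is not independent evidence. The gene (ENSMUSG00000021680) lies on chromosome 13 at 95431371-95444924 on the minus strand.

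*Crhbp* in the hippocampus is known as a product of inhibitory neurons. Of 7 interneuron markers, 3 were higher in both KI samples (*Slc32a1*, *Pvalb* and *Vip*, background 24.0%) and 1 was lower in both (*Sst*, background 18.1%). None was at 0, and the summed levels were 355 and 362 RPKM in WT and 359 and 339 RPKM in KI. *Sst* itself, which marks cells known to make CRHBP, was at 243 and 254 RPKM in WT and at 233 and 226 RPKM in KI, a log2 difference of -0.11. The log2 difference of *Crhbp* was thus larger in size than that of *Sst*, and the difference between the 2 genes was not tested.

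*Crhbp* was lower and *Crhr1* higher in both KI samples, so *Crhbp* RNA stood in a smaller proportion to *Crhr1* RNA there. The proteins were not measured. *Crhbp* over *Crhr1* was 4.40 and 4.76 in WT and 1.99 and 3.19 in KI. Both KI ratios were below both WT ratios, and the KI mean (2.59 ± 0.845) was 43.5% below the WT mean (4.58 ± 0.255, SD, n = 2 each). The exact permutation p was 0.333 (two-sided), the smallest that the design allows. The difference between the mean ratios was -1.99 and ranged from -2.59 to -1.40 when each sample was left out. Its sign could not change, since the ratios of the groups do not overlap.

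**Figure D2:**
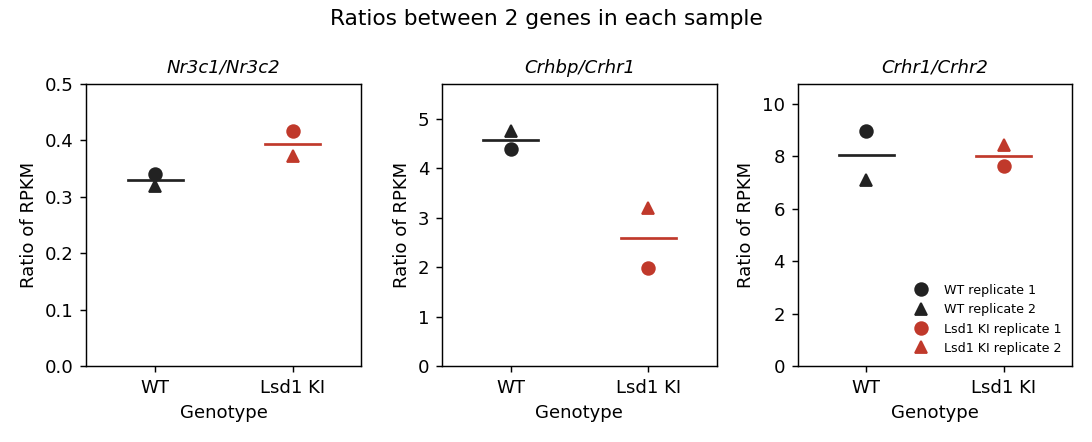
Ratio of the RPKM of 2 genes in each sample for *Nr3c1* over *Nr3c2*, *Crhbp* over *Crhr1* and *Crhr1* over *Crhr2*, with WT in black, *Lsd1* KI in red, circles for replicate 1, triangles for replicate 2 and lines at the group means (n = 2 each). The first ratio is higher in both KI samples, the second lower in both, and the third overlaps on this scale.

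*Oxtr*, the oxytocin receptor, was at 1.52 and 1.76 RPKM in WT and at 2.63 and 1.90 RPKM in KI. Both KI samples were above both WT samples, but KI replicate 2 exceeded the nearer WT sample only 1.08-fold, and KI replicate 1 exceeded KI replicate 2 1.38-fold with a counting interval of 1.10 to 1.75. The mean was 1.38-fold higher in KI. On the log2(RPKM + 1) scale the difference was 0.30 ± 0.15 (SE, limma adjusted p = 0.578), and it was 0.43 with a pseudocount of 0.1. The spread between the KI samples was thus larger than the gap between the groups, and the log2 difference was 0.14 without KI replicate 1 and 0.46 without KI replicate 2. Like *Crhr1*, *Oxtr* was followed by quantitative PCR after the RNA-seq of these samples, so its direction here is not independent evidence. The authors reported an increase in KI by that PCR for *Oxtr* as well. The gene (ENSMUSG00000049112) lies on chromosome 6 at 112473683-112489943 on the minus strand.

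*Avpr1b*, the vasopressin receptor known from CA2 pyramidal neurons and pituitary corticotrophs, was at 0.204 and 0.225 RPKM in WT and at 0.346 and 0.299 RPKM in KI. These values stand for 11 and 8 WT reads against 20 and 18 KI reads, and the gene did not pass the filter. The KI values were the higher ones, and the pooled read ratio was 1.52 with a 95% counting interval of 0.853 to 2.79, so no difference was detectable at this depth. With no filter, the log2(RPKM + 1) difference was 0.12 (limma adjusted p = 0.700). The gene (ENSMUSG00000026432) lies on chromosome 1 at 131599239-131612000 on the plus strand.

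*Avpr1a*, the most widespread vasopressin receptor of the brain, was at 0.195 and 0.0424 RPKM in WT and at 0.156 and 0.150 RPKM in KI. These are 7 reads and 1 read against 6 and 6 reads. The groups overlapped, and the pooled read ratio of 1.14 had a 95% counting interval of 0.428 to 3.21. The gene (ENSMUSG00000020123) lies on chromosome 10 at 122448499-122453452 on the plus strand.

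Since *Oxtr* and *Avpr1b* are known from area CA2, the markers of that area are given beside them. Of 6 CA2 markers, 5 were higher in both KI samples (background 24.0%), 1 (*Amigo2*) was lower in both (background 18.1%) and none was at 0, and their summed level was 188 and 183 RPKM in WT and 206 and 215 RPKM in KI. *Cacng5* stood at 3.99 and 3.01 RPKM in WT and at 8.80 and 5.04 RPKM in KI, a log2 difference of 0.78. *Rgs14*, a well-known marker of CA2 neurons, was at 42.1 and 42.5 RPKM in WT and at 46.5 and 45.6 RPKM in KI, a log2 difference of 0.12. The part of CA2 in the values of both receptors was not tested.

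*Nr3c2*, the mineralocorticoid receptor, was at 33.8 and 35.0 RPKM in WT and at 28.5 and 29.5 RPKM in KI. Both KI samples were lower, each group was tight (1.04-fold between its samples), and the nearest WT and KI values stood 1.14-fold apart. This was the gene with the smallest p of the 8 tested. The KI mean was 15.8% below WT. On the log2(RPKM + 1) scale the difference was -0.24 ± 0.05 (SE, limma adjusted p = 0.364), from 2002 to 2934 reads a sample. The log2 difference ranged from -0.27 to -0.21 when each sample was left out in turn. Its sign could not change, since the groups do not overlap. The gene (ENSMUSG00000031618) lies on chromosome 8 at 76899442-77245012 on the plus strand, and *Gm10649* on the other strand shares 247 of its 6474 exon bases (3.82%), which reads of a kit that does not mark strand cannot tell apart.

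The summed hippocampal principal cell markers, which mark neurons rich in *Nr3c2*, were also lower in KI (320 and 324 RPKM in WT, 297 and 310 RPKM in KI). Of these 8 markers, 3 were lower in both KI samples (background 18.1%), none was higher in both (background 24.0%) and none was at 0. The 3 were *Prox1* and *C1ql2*, which mark dentate granule cells, and *Neurod2*. *Prox1* was at 17.3 and 16.9 RPKM in WT and at 10.2 and 13.1 RPKM in KI, and *C1ql2* at 41.8 and 44.0 RPKM in WT and at 30.7 and 34.2 RPKM in KI, with KI means 31.7% and 24.3% below WT and log2 differences of -0.52 and -0.39 (limma adjusted p = 0.405 and 0.336). The CA1 and CA3 markers *Wfs1*, *Fibcd1* and *Grik4* overlapped between the groups. The CA2 markers, kept as a separate list, went mostly the other way, with 5 of 6 higher and 1 lower in both KI samples. They summed to 188 and 183 RPKM in WT and to 206 and 215 RPKM in KI. The part of the principal cells, those of CA2 included, in the *Nr3c2* difference was not tested.

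*Nr3c1*, the glucocorticoid receptor, was at 11.5 and 11.2 RPKM in WT and at 11.9 and 11 RPKM in KI. The groups overlapped. The log2 difference was 0.01 ± 0.07 (SE, limma adjusted p = 0.981), with a 95% interval of -0.16 to 0.18. *Nr3c1* over *Nr3c2*, the balance of the 2 corticosteroid receptors in RNA, was 0.340 and 0.319 in WT and 0.417 and 0.372 in KI. Both KI ratios were above both WT ratios, by 19.7% on average (0.394 ± 0.0315 against 0.330 ± 0.0147, SD, n = 2 each, two-sided exact permutation p = 0.333, the smallest possible). The difference between the mean ratios was 0.0648, and it was 0.0425 without KI replicate 1 and 0.0871 without KI replicate 2. Of the 2 genes, *Nr3c1* overlapped between the groups and *Nr3c2* did not.

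*Fkbp5*, the cochaperone, was at 10.1 and 9.06 RPKM in WT and at 8.29 and 9.20 RPKM in KI. The groups overlapped, and the log2 difference was -0.12 ± 0.09 (SE, limma adjusted p = 0.706), with a 95% interval of -0.34 to 0.11. It was -0.05 without WT replicate 1 or KI replicate 1 and -0.18 without either of the others. *Sgk1*, the kinase, was at 14.8 and 11 RPKM in WT and at 12.5 and 13.8 RPKM in KI. Here the WT samples held both the highest and the lowest value, 1.34-fold apart with a 95% counting interval of 1.2 to 1.5, so the 2 WT samples differed beyond counting error. The log2 difference of *Sgk1* was 0.04 ± 0.15 (SE, limma adjusted p = 0.961). Relative to the glucocorticoid receptor of the same sample, *Fkbp5* was at 0.876 and 0.810 in WT and at 0.700 and 0.838 in KI, and *Sgk1* at 1.29 and 0.983 in WT and at 1.06 and 1.25 in KI, and both ratios overlapped between the groups. *Fkbp5* (ENSMUSG00000024222) lies on chromosome 17 at 28399094-28517527 on the minus strand and *Sgk1* (ENSMUSG00000019970) on chromosome 10 at 21882184-21999903 on the plus strand, both given, like the other positions, from GENCODE M21 (GRCm38).

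**Figure D3:**
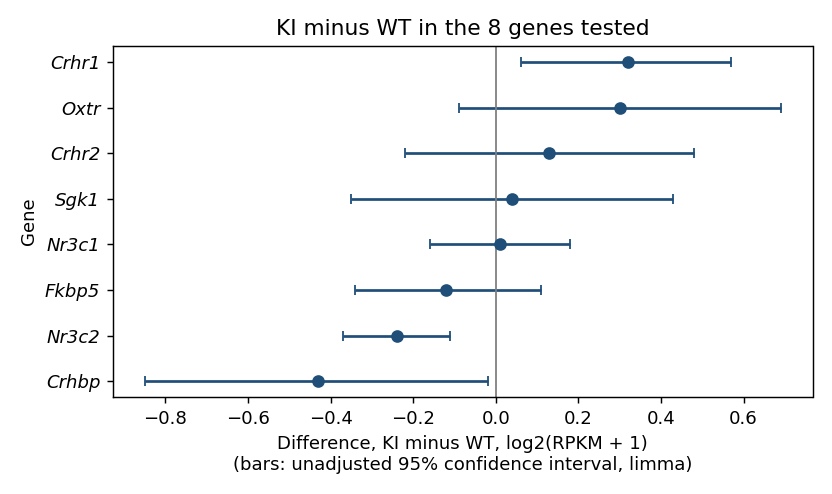
Log2 difference, KI minus WT, on the log2(RPKM + 1) scale for the 8 genes that passed the filter (points), with the unadjusted 95% confidence interval of limma (bars, n = 2 WT and 2 KI). The intervals of *Crhr1*, *Nr3c2* and *Crhbp* leave out 0 before adjustment, and none of the 8 has an adjusted p under 0.1 (smallest 0.364).

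The rest of the hormone systems was read from a list of 49 other genes chosen by role, of which 46 were listed and 40 passed the filter. By limma, 0 were called, 6 had an unadjusted p under 0.05 with a higher level in KI and 1 with a lower level (backgrounds 6.3% and 3.33%). The 6 include *Lcn2*, which entered the test only through the KI samples where it was high. Each KI value exceeded each WT value in 14 of the 40, *Lcn2* again among them (background 24.0%), and was under it in 9 (background 18.1%). The median log2 difference was 0.00.

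The peptides that act on these receptors were scarce in the hippocampal RNA. *Crh* was at 0.791 and 1.12 RPKM in WT and at 0.685 and 0.557 RPKM in KI, lower in both KI samples, with a log2 difference of -0.26 (limma adjusted p = 0.608). *Oxt* was listed at 0.139 and 0 RPKM in WT and at 0.388 and 0.249 RPKM in KI, and *Avp* at 0 and 0 RPKM in WT and at 0.121 and 0.116 RPKM in KI. At most 3 reads stood behind any of these *Oxt* and *Avp* values. *Ucn2* was listed at 0 in both WT samples and at 0.139 and 0.0668 RPKM in KI, from about 2 reads and 1 read. *Pomc* overlapped between the groups (0.444 to 0.787 RPKM over all 4 samples), and *Ucn*, *Ucn3* and the ACTH receptor *Mc2r* were not listed. *Mc4r*, the melanocortin receptor of the brain, overlapped as well, with a log2 difference of -0.25.

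No gene was called by limma among the chaperones that hold steroid receptors ready for hormone or among the coregulators, and *Stip1* alone of these 11 had an unadjusted p under 0.05. Of 6 chaperone genes, 5 were higher in both KI samples and none lower in both, against backgrounds of 24.0% and 18.1% of genes. The cochaperone *Stip1* was at 73.4 and 71.9 RPKM in WT and at 82.2 and 85.3 RPKM in KI, a log2 difference of 0.20 (limma adjusted p = 0.399). *Fkbp4*, the counterpart of FKBP5 on the receptor, had the largest log2 difference of the 6 (0.21) and *Hspa8* the smallest (0.06). Of 5 coregulators, 3 were lower in both KI samples and none higher in both, with the lowest log2 difference for the corepressor *Ncor1* (-0.14).

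Of 16 genes known to be induced by glucocorticoids besides *Fkbp5* and *Sgk1*, 15 passed the filter. Of these, 6, *Lcn2* among them, were higher in both KI samples (background 24.0%), 2 were lower in both (background 18.1%) and 7 overlapped. *Lcn2*, which encodes a secreted iron-trafficking protein also known from inflammation, was at 0.0324 and 0.0492 RPKM in WT and at 1.87 and 3.98 RPKM in KI. This is 1 read in each WT sample against 62 and 137 reads in KI, and its pooled read ratio was 75.5 with a 95% counting interval of 20.6 to 627. *Lcn2* passed the filter only through the KI samples where it was high, so its difference of 1.86 on the log2(RPKM + 1) scale (limma adjusted p = 0.307) is a description and supports nothing. The metallothioneins *Mt1* (184 and 190 RPKM in WT, 229 and 243 RPKM in KI) and *Mt2* (96.7 and 93.1 RPKM in WT, 111 and 113 RPKM in KI), which bind zinc, had log2 differences of 0.34 and 0.23 (limma adjusted p = 0.307 and 0.353). *Tsc22d3*, an anti-inflammatory mediator (0.22), and the lipid droplet gene *Plin4* (0.55) also had an unadjusted p under 0.05 and were higher in both KI samples. *Errfi1*, an inhibitor of EGF receptor signalling, was the lower one at that p (-0.16). The median log2 difference of the 15 was 0.05. *Per1*, *Dusp1*, *Pdk4*, *Ddit4* and *Zbtb16* were among the 7 that overlapped between the groups, as *Fkbp5* and *Sgk1* did.

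**Figure D4:**
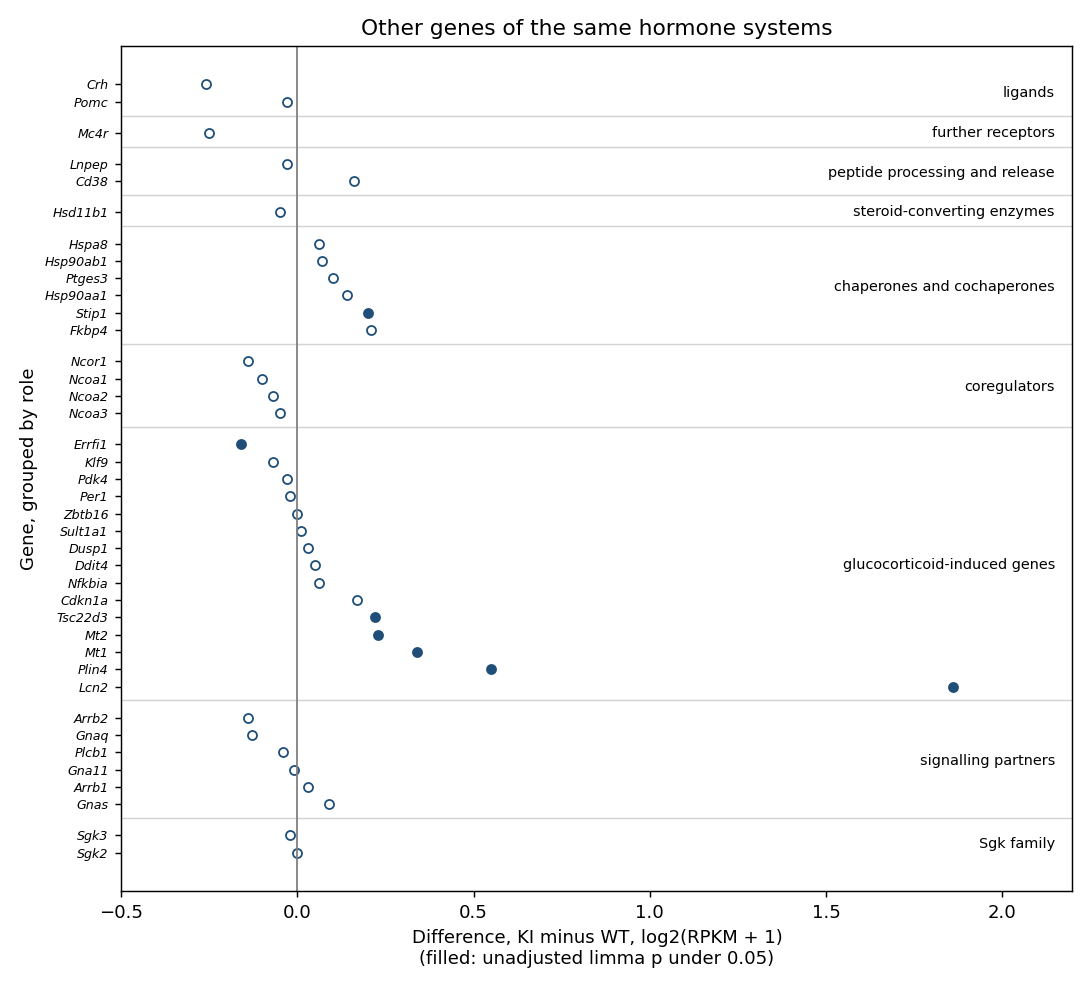
Log2 difference, KI minus WT, on the log2(RPKM + 1) scale for the other genes of the hormone systems that passed the filter, grouped by role, of which 1 of the 40 is not shown. Filled points have an unadjusted limma p under 0.05, which are 6 higher genes and *Errfi1*, and no gene has an adjusted p under 0.1 (smallest 0.307). *Lcn2*, 1 of the 6, passed the filter only through the KI samples.

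Behind the receptors, the G protein genes and arrestins showed no call: of 6 signalling partners, log2 differences ran from -0.14 for *Arrb2* to 0.09 for *Gnas*. The 2 relatives of *Sgk1*, *Sgk2* (-0.00) and *Sgk3* (-0.02), overlapped between the groups. *Hsd11b1*, which regenerates active corticosterone inside cells, overlapped too (-0.05), and *Hsd11b2*, which inactivates it, was listed with at most 2 reads a sample. *Cd38*, needed for oxytocin release, had a log2 difference of 0.16, and *Lnpep*, a peptidase of oxytocin, one of -0.03. The vasopressin 2 receptor *Avpr2* did not pass the filter, at 0.232 and 0.393 RPKM in WT and 0.361 and 0.649 RPKM in KI, with overlapping groups.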

How the data were processed

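Hippocampal poly(A) RNA was sequenced from 2 WT and 2 *Lsd1* KI samples. The authors aligned read pairs to mm10 with GSNAP, kept unique, proper pairs and deposited RPKM per Ensembl gene for each sample; the read counter is not given in the sources used here. The authors' edgeR test needs counts, so limma (version 3.58.1, R version 4.3.3) was fitted to log2(RPKM + 1), with 0 for a gene a sample did not list, a mean-variance trend, a filter of 0.5 RPKM in 2 samples and Benjamini-Hochberg adjustment over 18436 genes. Fold changes on this scale understate those of low genes. The code was tested on simulated data. That checks the code, and no power for 2 samples a group is claimed from it.

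Whole-read steps in the RPKM values and exon lengths (GENCODE M21) gave the reads behind a value. At the GENCODE length these were within 0.02 of a whole number for 5 of the 10 genes. For the other 5 a length was chosen to make them whole, so wholeness is no check there. For genes under 20 reads, 76.8% to 78.7% of values came out whole. Intervals of 95% from these reads are exact binomial or Poisson and cover counting error only. Whole reads were not recovered for nearly all genes, so no count test was run.

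The 10 genes, the pathway genes and the marker lists were chosen with earlier results of these data known. All 10 genes are named. Of the pathway list, the ligands, genes with an unadjusted p under 0.05 and the extremes of each role are named, and the other names were chosen after their values were seen. Alternatives were another pseudocount (0.1), no filter, at least 10 reads in every sample, a replicate block, no trend, quantile normalization, a 1.5-fold threshold, RPKM + 1 for ratios and leaving out each sample. Python 3.11.15, pandas 2.3.3, numpy 2.4.6, scipy 1.17.1 and matplotlib 3.10.9 served for the rest. The promoters of *Nr3c1* and *Avpr1b* were not used here, and the values of 1 pathway gene are not reported here, though the counts include it.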

Additional observations from a re-analysis of the deposited data

How the results depend on the processing

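By limma, 0 of the 10 genes and 0 of the pathway genes were called under every alternative run, with smallest adjusted p of 0.260 to 0.721 over the 10 genes. Over all genes, limma called 1 gene with at least 10 reads in every sample, 20 without the mean-variance trend and 0 under the other single alternatives. With the replicate number as a block, limma called 0 genes, and with the replicate block and at least 10 reads in every sample 51 (42 higher and 9 lower in KI), where the smallest adjusted p of the 10 genes was 0.260 (*Crhbp*). The labels do not say that equal numbers mark paired samples, and the deviations of same-numbered samples correlated at -0.0249 over 18436 genes. The genes with both KI values above both WT values numbered 2 after quantile normalization, of the 8 tested. Leaving out each sample in turn gave 4 to 6 higher and 2 to 5 lower genes, counts that by construction cannot go down. *Nr3c1* ranged from -0.04 to 0.06 (-0.01 without WT replicate 2, -0.04 without KI replicate 1) and *Sgk1* from -0.16 to 0.24 (-0.16 without WT replicate 2, -0.03 without KI replicate 2), so neither has a stable direction. The other 6 genes tested kept their sign. For *Crhr1*, *Crhr2*, *Crhbp*, *Oxtr* and *Nr3c2* this was fixed by construction, since their groups do not overlap. *Fkbp5*, whose groups overlap, ranged from -0.18 to -0.05. Where 1 sample is left in a group, it is assumed to vary like the other group. The cause of these shifts was not tested. Fold threshold, block and trend do not bear on counts of groups that do not overlap. Depth limits *Avpr1a*, *Avpr1b* and *Crhr2* most, and 2 samples a group limit every test.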
